A study of Mus musculus with 13 samples.

Results

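The major urinary protein (MUP) genes analysed here are *Mup1*, *Mup2*, *Mup3*, *Mup7*, *Mup10*, *Mup17*, *Mup20* and *Mup21*. They were taken by name from the table of liver counts, in which 8 of 53465 genes are these genes and 49 carry a Mup or Mup-ps name (22 protein-coding genes and 27 pseudogenes). The mice were males of the inbred BALB/c strain, and liver RNA of each was sequenced on its own. The groups were 6 wild type (WT) mice and 7 *Nod2*-/- mice, which lack the gene for *Nod2*, an innate immune sensor of bacterial peptidoglycan fragments. All 13 mice of both groups had received the carcinogen DMBA on the skin as pups and were then fed a high-fat diet (HFD), for 30 weeks according to the sample labels, and all are labelled as having cancer. The paper, however, found liver tumors in nearly all *Nod2*-/- males treated this way but only in a minority of WT males. Which of the 13 mice bore tumors is not given in the sources used here, so tumor burden and genotype cannot be told apart. The 2 genotypes were bred as separate lines in 1 room and were not littermates, so line and genotype cannot be told apart. There was 1 library per mouse, made with a strand-specific kit from polyadenylated RNA, and no untreated or chow-fed mice were analysed here.

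MUPs are small lipocalins, barrel-shaped proteins with a pocket for fatty and volatile molecules. The liver of male mice makes them in large amounts, the blood carries them to the kidney, and they leave with the urine, where they bind pheromones and release them slowly or act as signals themselves. Hepatocytes transcribe the genes under the pulses of growth hormone typical of males, which act through the growth hormone receptor and STAT5b, and also under testosterone, thyroid hormone and glucocorticoids. The family lies in 1 gene cluster. Its central genes (here *Mup1*, *Mup2*, *Mup7*, *Mup10* and *Mup17*) are near-identical copies, and the peripheral genes (*Mup3*, *Mup20* and *Mup21*) differ more. *Mup20* encodes darcin, the male pheromone that attracts females.

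In GRCm38 with GENCODE annotation, 48 of the 49 Mup genes lie on chromosome 4 between 59956804 and 62150863, with 0 protein-coding genes of other families among them. All 8 genes are on the minus strand. The central ones are *Mup7* (60066469 to 60070475), *Mup2* (60135932 to 60154289), *Mup1* (60498012 to 60501960), *Mup10* (60578260 to 60582199) and *Mup17* (61591929 to 61595871). The peripheral ones lie at the far end as *Mup20* (62050234 to 62054158), *Mup3* (62083476 to 62087342) and *Mup21* (62147932 to 62150863). Coding sequences of the 5 central genes were 98.7 to 99.44% identical to each other. *Mup20* was 90.06 to 90.98% identical to the central genes, *Mup3* 82.34 to 83.24% and *Mup21* 83.61 to 84.53%, and *Mup3* and *Mup21* were 94.75% identical to each other.

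How far the copies can be told apart is seen in 90 bases of the coding sequence, the stretch without a gap that holds the most positions at which the central genes differ (5 positions). The stretch lies within exon 2 of each gene and covers coding bases 131 to 220 of *Mup1* (chr4:60501292-60501381, minus strand, GRCm38). It is shown 5′ to 3′ from the GENCODE transcripts, and capitals mark bases that differ from *Mup1*.
Mup1: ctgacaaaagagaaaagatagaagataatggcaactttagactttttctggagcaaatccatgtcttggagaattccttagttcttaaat
Mup2: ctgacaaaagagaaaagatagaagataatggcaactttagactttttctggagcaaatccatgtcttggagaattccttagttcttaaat
Mup7: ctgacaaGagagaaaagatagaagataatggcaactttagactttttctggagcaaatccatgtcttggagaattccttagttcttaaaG
Mup10: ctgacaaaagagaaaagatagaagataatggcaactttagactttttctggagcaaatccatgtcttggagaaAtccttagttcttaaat
Mup17: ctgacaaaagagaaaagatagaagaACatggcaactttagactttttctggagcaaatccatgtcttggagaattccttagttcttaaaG
Mup20: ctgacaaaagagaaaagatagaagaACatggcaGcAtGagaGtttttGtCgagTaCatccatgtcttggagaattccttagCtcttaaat
Mup3: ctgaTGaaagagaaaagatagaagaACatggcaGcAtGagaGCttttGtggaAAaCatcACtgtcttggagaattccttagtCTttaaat
Mup21: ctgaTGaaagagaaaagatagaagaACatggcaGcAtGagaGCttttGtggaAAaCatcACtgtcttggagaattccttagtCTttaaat
*Mup2* was identical to *Mup1* over these 90 bases, whereas *Mup10*, *Mup7* and *Mup17* differed at 1, 2 and 3 positions. *Mup20* differed from *Mup1* at 11 positions and *Mup3* and *Mup21* each at 17, and the printed stretches of *Mup3* and *Mup21* show the same differences. Reads were 43 bases long from each end. Over whole transcripts, 0% of the 43-base words of *Mup2* occurred in no other annotated gene, against 3.62% for *Mup1*, 2.82% for *Mup7*, 12.99% for *Mup10* and 19.32% for *Mup17*. The corresponding values were 45.71% for *Mup20*, 77.32% for *Mup21* and 80.15% for *Mup3*. How reads that fit several genes were counted is not given in the sources used here, and the annotated genome is that of C57BL/6J and not of BALB/c mice. Values of single central genes are therefore uncertain, and the genes are also given as sums.

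Libraries of WT mice held between 14886273 and 20579984 counts, those of *Nod2*-/- mice between 13824780 and 19391431. *Nod2* itself had 0 to 4 counts per WT mouse and 1 to 6 counts per *Nod2*-/- mouse (two-sided exact permutation test of normalized counts, p = 0.385), so its transcript did not check the genotype labels. All 6 hepatocyte markers (*Alb*, *Apoa1*, *Ttr*, *Serpina1c*, *Cps1* and *Cyp2e1*) were abundant, with a summed level of 1331100 to 1897560 normalized counts in WT mice, against 1359710 to 2747170 in *Nod2*-/- mice, so genes that define liver cells were present in all 13 libraries. *Nod2*-/- replicate 7 stood apart by its neutrophil markers, which summed to 15240 normalized counts against 62.4 to 578 in the other *Nod2*-/- mice and 43.9 to 99.1 in WT mice. In bulk tissue, fewer cells of a type and less RNA per cell cannot be told apart.

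Summed over the 8 genes, MUP transcripts held 0.978 to 1.64% of the counts of a WT library, against 0.103 to 1.39% of a *Nod2*-/- library, and their sum spread more widely among *Nod2*-/- mice. The sum was 172284, 219481, 167070, 223903, 273933 and 224698 normalized counts in WT replicates 1 to 6. In *Nod2*-/- replicates 1 to 7 it was 230113, 207247, 178625, 73010, 178927, 102575 and 17238. A normalized count here is a read count after scaling every library to the same effective size. The 3 values of *Nod2*-/- replicates 4, 6 and 7 lay below the lowest WT mouse, and the other 4 *Nod2*-/- mice lay within the WT range, so the groups overlapped. The mean was 213561 ± 39436 in WT mice (SD, n = 6) and 141105 ± 78102 in *Nod2*-/- mice (SD, n = 7), a ratio of 0.661 or -0.60 on the log2 scale. Highest and lowest mouse differed by a factor of 1.64 in WT mice and 13.3 in *Nod2*-/- mice. The SD of the log2 sum was 0.27 and 1.32. Without *Nod2*-/- replicate 7 the log2 ratio of the means was -0.40. No p is given for this sum, since its members were chosen with results of these data known.

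All 49 Mup genes together held 1.34 to 2.28% of the counts of a WT library and 0.138 to 1.995% of a *Nod2*-/- library. The sum of the 5 central genes was 36947 ± 9008 normalized counts in WT mice (SD, n = 6) and 23929 ± 19280 in *Nod2*-/- mice (SD, n = 7). Its log2 ratio was -0.63, and that of the sum over all 49 genes was -0.64. Without *Mup20*, the sum of the other 7 genes had a log2 ratio of -0.74, with 155437 to 254511 normalized counts in WT mice, against 14873 to 209664 in *Nod2*-/- mice. For each of these 3 sums 4 of 7 *Nod2*-/- mice lay below the lowest WT mouse, against 3 of 7 for the sum of the 8. In the central sum and in that of all 49 genes the lowest mouse was *Nod2*-/- replicate 7, at 3609 and 23044 normalized counts.

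**Figure D1:**
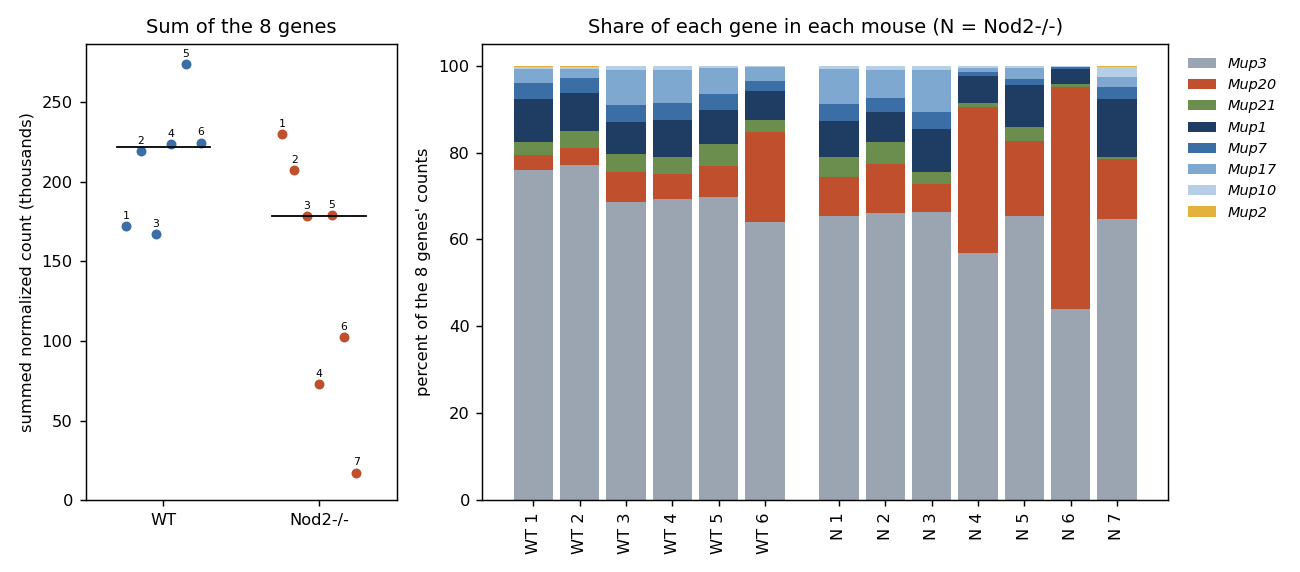
Left, the summed normalized count of the 8 genes in each mouse (axis in units of 1000), with lines at the group medians of 221692 (WT) and 178625 (*Nod2*-/-) normalized counts. Right, the percent of the 8 genes' counts that each gene took in each mouse, where *Mup3* (grey) took the largest share in 12 of 13 mice and *Mup20* (orange) took 51.2% in *Nod2*-/- replicate 6.

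None of the 8 genes passed a 5% false discovery rate (FDR). With edgeR's quasi-likelihood test, 0 of 8 were called, against 1.16% of the 13545 genes tested (69 lower and 88 higher in *Nod2*-/- mice), and at an unadjusted p under 0.05 the count was also 0 of 8, against 23.1% of all genes. DESeq2 also called 0 of 8, against 8.41% of genes, and had 0 of 8 at an unadjusted p under 0.05, against 13.9% of genes. The limma tool voomWithQualityWeights called 0 of 8, against 6.22% of genes. The fitted log2 fold change was below 0 for 7 of 8 genes, against 47.7% of genes tested, and the median over the 8 was -0.70, against 0.02 over all genes. For 7 of 8 genes at least 3 *Nod2*-/- mice lay below the lowest WT mouse, against 20.8% of genes tested. *Nod2*-/- replicates 4, 6 and 7 were among them for each of the 7 genes, and the central genes share reads. Such counts of genes are therefore not separate observations. The groups were separated without overlap for 0 of 8 genes, against 1.44% of genes tested. The coefficient of variation among mice had a median over the 8 genes of 38.7% in WT and 75.2% in *Nod2*-/- mice, while over all genes tested the medians were 17.7 and 19.1%.

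Among the central genes, *Mup1* encodes an abundant urinary MUP that carries volatile pheromones. Its level was 12188 to 21102 normalized counts (median 17854) in WT mice, against 2288 to 18805 (median 13991) in *Nod2*-/- mice. *Nod2*-/- replicates 4, 6 and 7 had 4478, 3589 and 2288 normalized counts, below every WT mouse, and the other 4 lay within the WT range. The mean was 17235 ± 3261 normalized counts in WT mice (SD, n = 6) and 11135 ± 7359 in *Nod2*-/- mice (SD, n = 7). The difference did not pass the test (log2 fold change -0.63 ± 0.43 (SE), edgeR adjusted p = 0.395).

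*Mup2*, whose transcript has 0 words of its own, had the lowest counts of the central genes. WT mice had 117 to 554 normalized counts (median 355) of *Mup2*, and *Nod2*-/- mice had 22.8 to 380 (median 186). The lowest *Nod2*-/- values were 31.9, 22.8 and 59.8 in replicates 4, 6 and 7, and WT replicate 6 was the lowest WT mouse. Of the 8 genes, *Mup2* had the smallest edgeR p (unadjusted p = 0.0949, log2 fold change -0.99 ± 0.55 (SE), edgeR adjusted p = 0.296).

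*Mup7*, another central gene, showed 4 of 7 *Nod2*-/- mice below the lowest WT mouse. Levels of *Mup7* ran from 5105 to 10481 normalized counts (median 7255) among WT mice and from 397 to 9182 (median 2499) among *Nod2*-/- mice. The values of *Nod2*-/- replicates 4, 6 and 7 were 643, 397 and 471, and that of replicate 5 was 2499. The difference again did not pass (log2 fold change -0.94 ± 0.65 (SE), edgeR adjusted p = 0.398), with a mean of 7538 ± 1922 normalized counts in WT mice (SD, n = 6) and 3929 ± 3781 in *Nod2*-/- mice (SD, n = 7).

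*Mup10* and *Mup17* are central copies that also varied within WT mice. *Mup10* had 603 to 1913 normalized counts (median 1085) in WT mice, against 216 to 1664 (median 772) in *Nod2*-/- mice. The fitted difference of *Mup10* was smaller than its error (log2 fold change -0.36 ± 0.45 (SE), edgeR adjusted p = 0.654). WT mice had 4788 to 16728 normalized counts (median 10490) of *Mup17*, and *Nod2*-/- mice had 159 to 18460 (median 4548). *Nod2*-/- replicates 4, 6 and 7 had 810, 159 and 413 normalized counts of *Mup17*, while replicates 1 and 3 lay above every WT mouse. The fitted difference of *Mup17* was within its error (log2 fold change -0.45 ± 0.85 (SE), edgeR adjusted p = 0.779). The ratio of *Mup17* to *Mup1* counts ran from 0.254 to 1.11 in WT mice, against 0.0444 to 0.982 in *Nod2*-/- mice, so near-identical copies did not keep 1 ratio in either genotype.

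**Figure D2:**
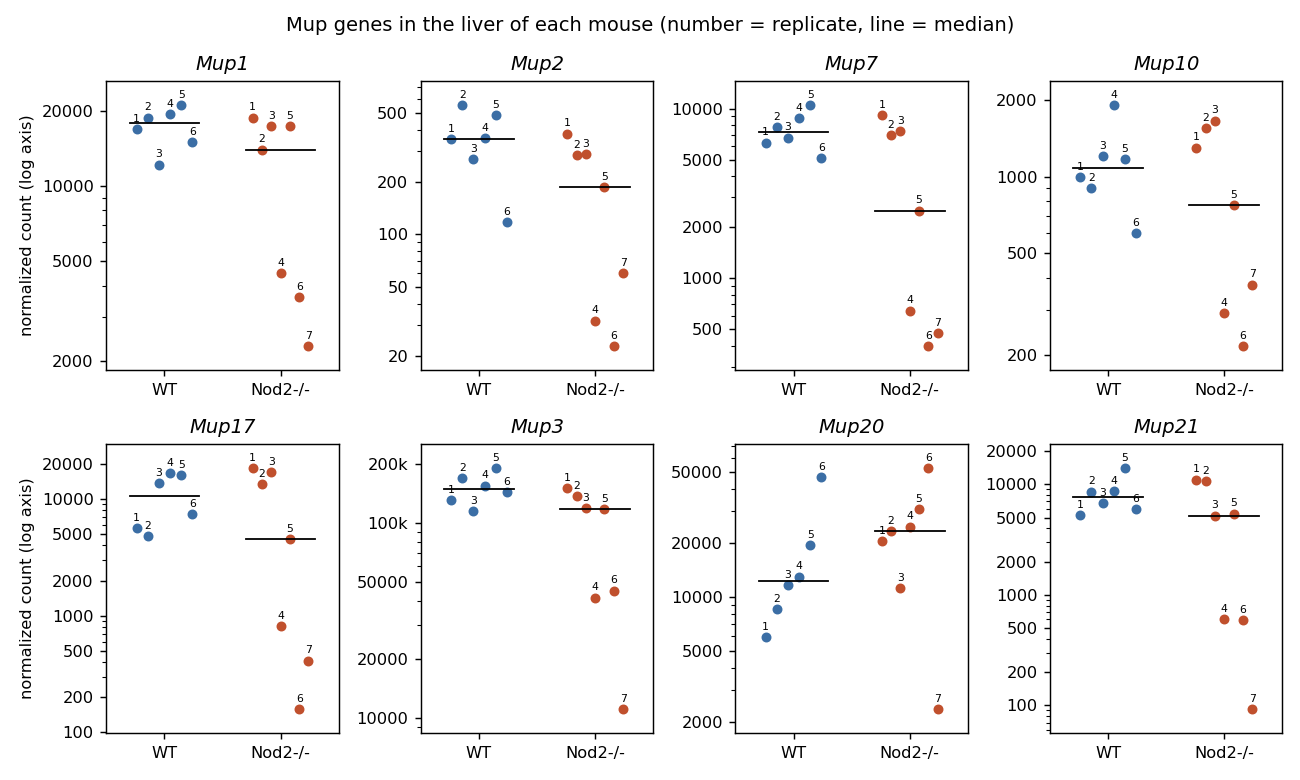
Normalized count of each of the 8 genes in the liver of each mouse, on log axes that differ between panels, with the replicate number above each point and a line at the group median. *Nod2*-/- replicates 4, 6 and 7 are the lowest of all 13 mice in every panel but *Mup20*, in which replicate 6 is the highest mouse and replicate 7 the lowest.

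Of the peripheral genes, *Mup3* had the highest counts of the 8, also per kilobase of transcript. Levels of *Mup3* ran from 114705 to 191220 normalized counts (median 149290) among WT mice and from 11170 to 150523 (median 117199) among *Nod2*-/- mice. *Nod2*-/- replicates 4, 6 and 7 had 41465, 45032 and 11170 normalized counts, and the other 4 *Nod2*-/- mice lay within the WT range. The mean was 150829 ± 27394 normalized counts in WT mice (SD, n = 6) and 88733 ± 54806 in *Nod2*-/- mice (SD, n = 7). A two-sided exact permutation test of the group means gave an unadjusted p = 0.035, the lowest of the 8 genes so tested (the others had p = 0.0571 to 0.49), and the fit over all genes did not call it (log2 fold change -0.77 ± 0.44 (SE), edgeR adjusted p = 0.306).

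*Mup21*, the closest relative of *Mup3*, had the lowest single value among the peripheral genes. WT mice had 5263 to 14069 normalized counts (median 7669) of *Mup21*, and *Nod2*-/- mice had 93.1 to 11012 (median 5207). The values of *Nod2*-/- replicates 4, 6 and 7 were 607, 586 and 93.1. Replicate 3 was also slightly below the lowest WT mouse. The difference did not pass the test (log2 fold change -0.78 ± 0.76 (SE), edgeR adjusted p = 0.554).

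*Mup20* did not follow the other genes. Its level was 5941 to 46851 normalized counts (median 12304) in WT mice, against 2365 to 52573 (median 23391) in *Nod2*-/- mice. *Nod2*-/- replicates 4 and 6, low for the other 7 genes, had 24684 and 52573 normalized counts, the latter the highest of all mice, whereas replicate 7 had 2365, the lowest. WT replicate 6 had 46851 against 5941 to 19423 in the other WT mice. The mean was 17555 ± 15064 normalized counts in WT mice (SD, n = 6) and 23656 ± 15857 in *Nod2*-/- mice (SD, n = 7), and the difference did not pass the test (log2 fold change 0.43 ± 0.57 (SE), edgeR adjusted p = 0.675). Without WT replicate 6 the fitted log2 fold change was 1.02, and without *Nod2*-/- replicate 6 it was 0.10.

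As a description over the 13 mice, Pearson correlations of log2 normalized counts among the 7 genes other than *Mup20* were 0.732 to 0.985 over 21 pairs (median 0.903). Those of *Mup20* with the other 7 were -0.263 to 0.354. Within WT mice the correlation was lower than over all 13 mice for each of the 21 pairs without *Mup20*. It ran from 0.0264 (*Mup2* with *Mup17*) to 0.901 (*Mup7* with *Mup21*) in WT mice. Within *Nod2*-/- mice it was higher than within WT mice for each of these pairs. There it ran from 0.737 (*Mup2* with *Mup3*) to 0.987 (*Mup7* with *Mup17*). Points share libraries, and the central genes also share reads.

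The make-up of the MUP RNA differed between mice. *Mup3* took 63.9 to 77.2% of the 8 genes' counts in WT mice, against 43.9 to 66.4% in *Nod2*-/- mice. *Mup20* took 3.45 to 20.9% of them in WT mice, against 6.27 to 51.2% in *Nod2*-/- mice. The 5 central genes took 12.55 to 21.1% (median 17.7%) in WT mice, against 4.27 to 24.4% (median 17.5%) in *Nod2*-/- mice. Replicates 4 and 6 had the lowest central shares among *Nod2*-/- mice (8.57 and 4.27%), replicate 3 had the highest, above every WT mouse, and replicate 7, with the lowest sum, had 20.9%. These shares add up to a fixed total, so a higher share of 1 gene lowers the others.

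Per kilobase of transcript, the counts of the 8 genes spanned a wide range. The share of 43-base words found in no other gene also differed, from 0% in *Mup2* to 80.15% in *Mup3*. How shared reads were counted is not known, so expression and ease of counting cannot be told apart in this order. In WT mice the mean normalized count per kilobase was 153281 ± 27840 for *Mup3*, 18917 ± 16232 for *Mup20*, 18592 ± 3518 for *Mup1*, 12158 ± 4688 for *Mup21*, 11526 ± 5788 for *Mup17*, 8132 ± 2073 for *Mup7*, 1221 ± 474 for *Mup10* and 384 ± 167 for *Mup2* (SD, n = 6). WT ranges did not overlap between *Mup3* and *Mup20*, between *Mup7* and *Mup10* or between *Mup10* and *Mup2*, while the neighbours from *Mup20* to *Mup7* overlapped. *Mup1* lay above *Mup20* in 5 of 6 WT mice, all but replicate 6, against the order of the means. In *Nod2*-/- mice the order of the means was the same except that *Mup17* (8418 ± 8799) lay above *Mup21* (7072 ± 6879, SD, n = 7). Per kilobase of all annotated exons, *Mup1* had rank 5 in both genotypes.

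Of the 41 other Mup genes and pseudogenes, 22 had at least 10 counts in at least 1 mouse and 17 passed the filter on low counts. None of these 17 passed 5% FDR (edgeR, 0 of 17, against 1.16% of all genes tested, with 1 of 17 at an unadjusted p under 0.05, against 23.1%). DESeq2 also called 0, against 8.41%, with 3 at an unadjusted p under 0.05, against 13.9%. Of these 17, 11 had a Pearson correlation above 0.8 with the summed 7 genes other than *Mup20*. They are therefore not observations separate from the 8 genes. The fitted log2 fold changes of the 17 were below 0 for 16, against 47.7% of all genes. Their median was -0.73 and their range -1.05 to 0.25. The most abundant was *Mup9*, with 20065 to 58130 normalized counts in WT mice, against 1705 to 57947 in *Nod2*-/- mice. *Mup8*, *Mup11*, *Mup12*, *Mup14* and *Mup16* were also well expressed, with medians in WT mice of 2057 (*Mup16*) to 13006 normalized counts (*Mup12*) and in *Nod2*-/- mice of 1057 (*Mup16*) to 3972 (*Mup12*). *Mup6* had the smallest p (log2 fold change -0.84, unadjusted p = 0.0167, edgeR adjusted p = 0.134) on 21.5 to 39.5 normalized counts in WT mice, against 6.83 to 27.5 in *Nod2*-/- mice. *Mup5*, best known from glands of the head, had 432 to 804 normalized counts in WT mice, against 129 to 646 in *Nod2*-/- mice.

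*Mup13*, *Mup18* and *Mup22* and the pseudogenes *Mup-ps4*, *Mup-ps10*, *Mup-ps12*, *Mup-ps13* and *Mup-ps18* reached at most 434 normalized counts in a mouse (*Mup18*). *Mup4*, *Mup19*, *Mup-ps16*, *Mup-ps17* and *Mup-ps23* reached at most 33.1 (*Mup-ps23*) and were not tested. The exception in direction was *Mup-ps19*, a pseudogene (61957149 to 61959911) that comes just before *Mup20* in the order of the tested Mup genes. Its log2 counts had a Pearson correlation of 0.991 with *Mup20* and 0.289 with the sum of the other 7 genes over 13 mice, and its values were 43.1 to 418 normalized counts in WT mice, against 16.7 to 435 in *Nod2*-/- mice. Whether the 2 loci share reads was not tested.

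**Figure D3:**
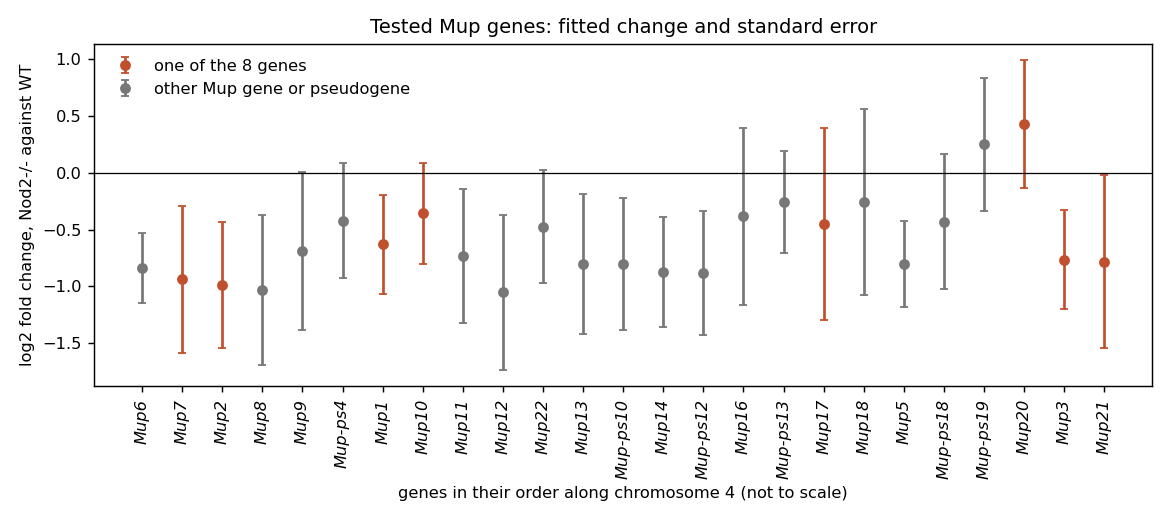
Fitted log2 fold change of *Nod2*-/- against WT mice with its standard error (edgeR, 6 WT and 7 *Nod2*-/- mice) for the 25 tested Mup genes in their order along chromosome 4. Of these, 23 lie below 0, and *Mup20* and *Mup-ps19*, which is next to it in this order, lie above 0 at 0.43 and 0.25, and none passed 5% FDR.

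Promoters of 6 of the 8 genes were found in the RefSeq table (build GRCm38.p6, 250 bases before to 50 after the start). They were searched on both strands for 3 motifs that were picked with the sequences in view. The promoters are also copies within 1 family, so their matches are not separate observations, and the shares of all promoters are background only. The letters ATCAATA, the core of the site of HNF6 (the product of *Onecut1*), were found 1 time in each of the 6, against 2.05% of 32851 promoters of the same length. The TATA box letters TATATAA were found in 5 of 6, against 3.24% of promoters. The exception was *Mup7*, whose HNF6 letters began 19 bases before the annotated start, against 94 to 154 bases in the other 5. Its window therefore ended before the distance at which the others carry the TATA letters, so it does not show that *Mup7* lacks them. The STAT site TTCNNNGAA was found in 0 of 6, against 8.30% of promoters, and this window holds only the bases nearest to the start. The stretch from 10 bases before the HNF6 letters to the end of the TATA box is shown for 2 central and 2 peripheral genes whose counts correlated over the mice. It is read 5′ to 3′ on the minus strand. Capitals mark both motifs, and in *Mup10* they cover overlapping TATA letters on both strands. The stretches lie at chr4:60582179-60582319, chr4:61595851-61595990, chr4:62087322-62087427 and chr4:62150843-62150945.
Mup10: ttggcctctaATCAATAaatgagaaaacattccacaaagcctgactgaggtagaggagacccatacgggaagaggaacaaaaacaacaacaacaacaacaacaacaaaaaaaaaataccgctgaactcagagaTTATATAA
Mup17: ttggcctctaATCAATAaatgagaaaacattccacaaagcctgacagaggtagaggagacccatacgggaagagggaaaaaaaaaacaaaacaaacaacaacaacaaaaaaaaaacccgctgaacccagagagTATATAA
Mup3: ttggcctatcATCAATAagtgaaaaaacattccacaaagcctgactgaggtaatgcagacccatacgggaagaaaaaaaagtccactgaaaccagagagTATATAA
Mup21: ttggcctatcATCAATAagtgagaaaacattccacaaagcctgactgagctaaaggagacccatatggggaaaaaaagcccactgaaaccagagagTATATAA
The 2 motifs were 116 bases apart in *Mup10* and *Mup17*, but 82 in *Mup3* and 79 in *Mup21*, and the central genes carry a longer run rich in A between them. *Mup10* and *Mup17* were 92.2% identical over this stretch, *Mup3* and *Mup21* 90.57%, and *Mup17* and *Mup3* 67.14%. A match of letters is not a binding site.

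Of the growth hormone pathway, which drives Mup transcription in males, 1 gene passed the test. Of 13 genes listed, 12 were tested, 1 was called lower and 0 higher, against 0.509% and 0.65% of all genes tested, and their median log2 fold change was -0.20, against 0.02 over all genes. At an unadjusted p under 0.05, 3 were lower and 1 higher, against 23.1% of all genes in either direction. The called gene was *Igfals*, which encodes the acid-labile subunit that holds IGF1 in the blood. It fell by 0.80 ± 0.16 (SE) on the log2 scale (edgeR adjusted p = 0.0365), with 2226 to 3272 normalized counts in WT mice, against 845 to 2054 in *Nod2*-/- mice, without overlap. *Igfals* was called in 6 of 13 fits with 1 mouse left out, and lost its call without WT replicates 1, 2, 4 or 5 and without *Nod2*-/- replicates 2, 6 or 7, where its highest adjusted p was 0.0985 (without WT replicate 2). The receptor gene *Ghr* had a log2 fold change of -0.51 ± 0.22 (SE, edgeR adjusted p = 0.186), the signal transducer gene *Stat5b* one of -0.15 ± 0.11 (0.395) and the target gene *Igf1* one of -0.24 ± 0.17 (0.390). *Ghr* was 4266 normalized counts in *Nod2*-/- replicate 4, 5894 in replicate 6 and 7078 in replicate 7, the 3 lowest of the 13 mice.

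Other genes typical of male liver mostly had fitted changes below 0. Of 15 male-biased genes, 12 had a log2 fold change below 0 (median -0.59), against 47.7% of all genes, and 6 of these had an unadjusted p under 0.05, against 23.1% of all genes in either direction. None was called lower, against 0.509% of all genes. DESeq2 called 1 lower and 1 higher, against 8.41% of all genes in either direction, and the lower one was the complement regulator gene *Susd4* (edgeR log2 fold change -0.78 ± 0.24, adjusted p = 0.0870 with edgeR and 0.0228 with DESeq2). The 1 gene called by edgeR was *Moxd1*, a monooxygenase-like gene, which was higher in *Nod2*-/- mice (0 to 8.13 normalized counts in WT and 22.5 to 2072 in *Nod2*-/- mice, edgeR adjusted p = 0.00102). Of 18 female-biased genes, 10 were tested and 1 was called, against 1.16% of all genes. This was *Cyp17a1*, which encodes a steroid hydroxylase. It rose by 2.71 ± 0.51 (SE) on the log2 scale (edgeR adjusted p = 0.0260), with 40.6 to 120 normalized counts in WT mice, against 187 to 1612 in *Nod2*-/- mice, without overlap and with the highest value in replicate 7. *Moxd1* was called in each of 13 fits with 1 mouse left out, and *Cyp17a1* in 9 of them (adjusted p up to 0.0766 without WT replicate 2, and not called without WT replicates 1, 4 and 5 either).

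Of 17 transcription factors and hormone receptors of the liver, all tested, 1 was called lower and 0 higher, against 0.509% and 0.65% of all genes, with a median log2 fold change of -0.20. At an unadjusted p under 0.05, 7 were lower and 2 higher, against 23.1% of all genes in either direction. DESeq2 called 3 lower and 0 higher, against 8.41% of all genes. *Onecut1*, which encodes HNF6, a factor of hepatocytes and bile ducts, fell by 1.44 ± 0.32 (SE) on the log2 scale (edgeR adjusted p = 0.0422). Its range was 270 to 732 normalized counts in WT mice, against 103 to 393 in *Nod2*-/- mice, where replicate 1 had the highest value. *Onecut1* was called in 3 of 13 fits with 1 mouse left out, those without WT replicate 3 and without *Nod2*-/- replicates 1 and 2, and its adjusted p reached 0.111 without WT replicate 2. The other 2 genes called by DESeq2 were not called by edgeR. *Hnf4a*, which encodes a nuclear receptor that maintains hepatocyte identity, had a log2 fold change of -0.34 ± 0.10 (SE, edgeR adjusted p = 0.0805, DESeq2 adjusted p = 0.00545). *Thrb*, which encodes the main thyroid hormone receptor of the liver, had one of -0.57 ± 0.15 (SE, edgeR adjusted p = 0.0681, DESeq2 adjusted p = 0.0115), with 715 to 1096 normalized counts in WT mice, against 430 to 837 in *Nod2*-/- mice. *Zhx2*, a regulator whose natural mutation in the BALB/cJ substrain alters Mup and *Afp* expression, had 254 to 346 normalized counts in WT mice, against 221 to 327 in *Nod2*-/- mice (log2 fold change -0.07 ± 0.11, edgeR adjusted p = 0.757). Of 4 genes known to depend on *Zhx2*, edgeR called 0, with 2 higher at an unadjusted p under 0.05 (23.1% of all genes), and DESeq2 called 1, the lipase gene *Lpl* (log2 fold change 1.14 ± 0.41, edgeR adjusted p = 0.126).

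Of the other lipocalins and secreted proteins of the liver, none passed the test with edgeR. Of 10 other lipocalin genes, 9 were tested and 7 had a fitted change above 0 (median 0.75). edgeR called 0, against 1.16% of all genes, with 6 higher at an unadjusted p under 0.05, against 23.1%, and DESeq2 called 2, against 8.41%. Over all genes tested, 47.7% had a fitted change below 0. The smallest p was that of *Lcn2*, an iron-siderophore binding acute phase protein, with 144 to 2112 normalized counts in WT mice, against 982 to 53827 in *Nod2*-/- mice (log2 fold change 3.86 ± 1.08, edgeR adjusted p = 0.0734). Its highest values were 53827 in *Nod2*-/- replicate 7 and 15766 in replicate 4, and replicate 6 had 982. Of 22 genes for other abundant secreted proteins, 16 had a change above 0 (median 0.19). edgeR called 0 of them, with 5 higher at an unadjusted p under 0.05, and DESeq2 called 2, beside the same shares of all genes. The smallest p was that of the heme carrier gene *Hpx* (log2 fold change 1.06 ± 0.30, edgeR adjusted p = 0.0775).

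Of genes of liver tumors and progenitor cells, 1 passed the test. Of 11 listed, 10 were tested, 9 had a fitted change above 0 (median 0.88) and 1 was called higher, against 0.65% of all genes. At an unadjusted p under 0.05, 4 were higher and 0 lower, against 23.1% of all genes, and DESeq2 called 2 higher, against 8.41%. This was *Sox9*, a factor of bile duct and progenitor cells, which rose by 1.29 ± 0.25 (SE) on the log2 scale (edgeR adjusted p = 0.0324), with 24.1 to 77.8 normalized counts in WT mice, against 77.0 to 164 in *Nod2*-/- mice. *Sox9* was called in 6 of 13 fits with 1 mouse left out, and lost its call without WT replicates 1, 2, 4 or 5 and without *Nod2*-/- replicates 4, 6 or 7, with 0.0827 as its highest adjusted p (without WT replicate 1). *Sox9* was also the 1 called gene of 5 bile duct markers, whose sum was 591 to 3576 in WT mice, against 1777 to 6658 in *Nod2*-/- mice. Most of that sum was *Spp1*, which encodes osteopontin, a protein that other cells also make (511 to 3456 in WT mice, against 1541 to 6425 in *Nod2*-/- mice). The bile duct keratin genes *Krt19* and *Krt7* had log2 fold changes of -0.40 ± 0.41 and -0.05 ± 0.31 (SE, edgeR adjusted p = 0.587 and 0.943). Both summed levels were highest in *Nod2*-/- replicate 4, at 13519 normalized counts for the tumor list and 6658 for the bile duct markers. Their part in the Mup values was not tested.

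Of 6 neutrophil markers, 2 passed the filter, and edgeR called 0 of them (2 higher at an unadjusted p under 0.05, 2 higher by DESeq2). Of 5 Kupffer cell markers, all tested, 0 were called (2 higher at an unadjusted p under 0.05, 0 by DESeq2), and their sum was 1544 to 2613 normalized counts in WT mice, against 1856 to 5646 in *Nod2*-/- mice, the highest in replicate 7. Of 6 hepatocyte markers, 0 were called (1 higher and 2 lower at an unadjusted p under 0.05, 2 lower by DESeq2). Of 6 lung epithelium markers, 4 were tested and 0 were called (4 lower at an unadjusted p under 0.05, 4 lower by DESeq2), with a sum of 219 to 3108 in WT mice, against 39.1 to 501 in *Nod2*-/- mice. The summed adipose markers were 26190 to 131277 normalized counts in WT mice. In *Nod2*-/- replicates 4, 6 and 7 they were 8078, 7235 and 16635, below every WT mouse, and in the other 4 they were 59781 to 86706. Most of that sum was *Car3*, a carbonic anhydrase gene that male liver also expresses (log2 fold change -1.01 with an unadjusted p = 0.103). The adipocyte genes *Adipoq* and *Plin1* reached at most 4.99 and 2.99 normalized counts and *Fabp4* 833. Of the 4 adipose markers 2 were tested, and they went in opposite directions. The tested marker other than *Car3* was higher in *Nod2*-/- mice, at an edgeR unadjusted p under 0.05, and DESeq2 called it higher. Over all genes tested, edgeR called 1.16%, had 23.1% at an unadjusted p under 0.05, and DESeq2 called 8.41%. The part of these markers in the Mup values was not tested.

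The genes outside the family most like the summed Mup genes over 13 mice were *Hsd3b5*, *Slc22a28*, *Cyp4a12b*, *Slco1a1* and *Zcwpw1*, with Pearson correlations of log2 values of 0.963, 0.941, 0.932, 0.932 and 0.915 among 11486 genes compared. *Hsd3b5* encodes a steroid-metabolizing enzyme of male liver, *Slc22a28* and *Slco1a1* belong to families of organic anion transporters, and *Cyp4a12b* encodes a fatty acid hydroxylase. Of these 5, *Hsd3b5*, *Cyp4a12b* and *Slco1a1* are also in the male-biased list. *Hsd3b5* had 3997 to 6063 normalized counts in WT mice. In *Nod2*-/- replicates 1 to 7 it had 6012, 4947, 4803, 1463, 2053, 1757 and 229, the lowest again in replicate 7. None of the 5 passed 5% FDR, and *Slco1a1* had a log2 fold change of -0.71 ± 0.26 (SE, edgeR adjusted p = 0.131).

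The correlation rested largely on *Nod2*-/- mice. For *Hsd3b5* it was 0.506 within WT mice and 0.967 within *Nod2*-/- mice, and without the 2 mice farthest from the median sum (*Nod2*-/- replicates 4 and 7) it was 0.776. The rank correlation was 0.797, and only *Cyp4a12b* was among the 5 highest by both measures. At the other end were *Slc11a2*, an iron transporter gene, *Shisa5* and *Emilin2*, an extracellular matrix gene, at -0.941, -0.939 and -0.934. Without the 2 mice these were -0.696, -0.677 and -0.331. *Slc11a2* had 542 to 618 normalized counts in WT mice, against 507 to 1311 in *Nod2*-/- mice, the highest in replicate 7. All points share their library with the sum, so these values describe the 13 mice and were not tested.

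**Figure D4:**
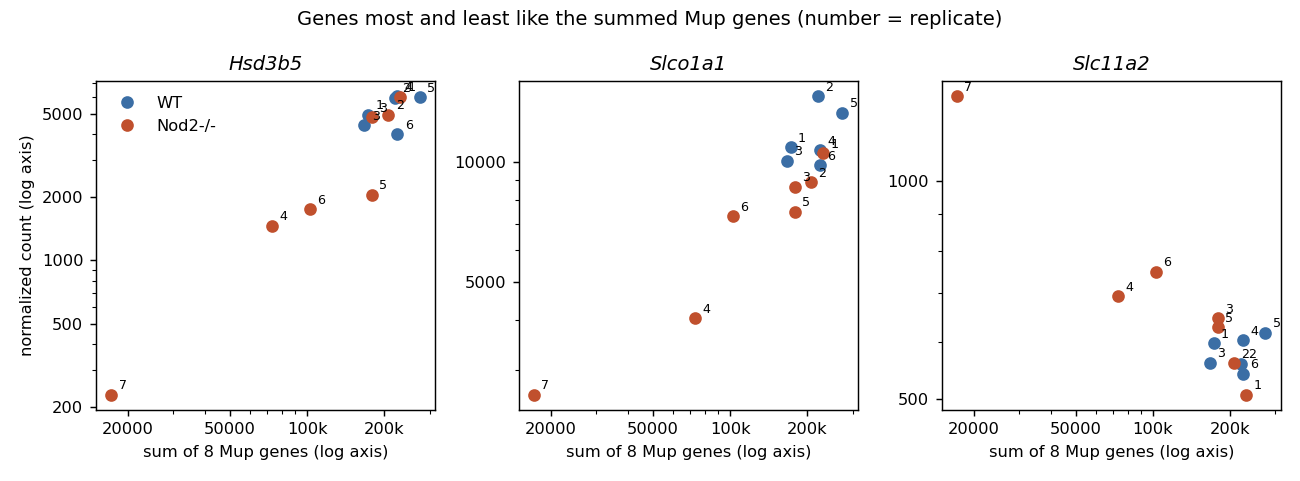
Normalized counts of *Hsd3b5*, *Slco1a1* and *Slc11a2* against the summed normalized counts of the 8 Mup genes, both on log axes (k stands for 1000), for each WT (blue) and *Nod2*-/- (orange) mouse with its replicate number. WT mice cluster at the right, and *Nod2*-/- replicates 4, 6 and 7 spread to the left down to a sum of 17238, where *Hsd3b5* and *Slco1a1* are lowest and *Slc11a2* is highest.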

How the data were processed

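Counts per gene of 13 liver libraries (6 WT, 7 *Nod2*-/-, 1 per mouse) were deposited by the authors as whole numbers without normalization. Before counting, the authors used Trimmomatic 0.33 for trimming and TopHat2 2.1.1 for alignment to GRCm38. The counting program, its strand setting and its treatment of reads with several matches are not given in the sources used here. Mapping losses or sharing among near-identical Mup copies can move counts between them. Groups came from the sample labels, and 1 entry without a gene identifier, with 0 counts, was left out. Of 53465 genes, 53274 were found in GENCODE M21 (GRCm38), which gave names, positions and transcripts.

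The test was edgeR's quasi-likelihood F test (version 4.0.16, R 4.3.3, TMM normalization, two-sided, no covariate) on 13545 genes that filterByExpr kept, with Benjamini-Hochberg adjustment at 5% FDR. Adjusted p-values are edgeR's unless said otherwise, and the SE is the log2 fold change divided by the square root of F. An exact permutation test (two-sided, 1716 splits, smallest p 0.000583) was added for single genes. Normalized counts are scaled to an effective library of 16581214. Alternatives were DESeq2 1.42.0, limma 3.58.1 (voomWithQualityWeights), other normalizations and filters, a robust fit, the replicate number as a block and leaving out each mouse.

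The members, the gene lists (8) and marker lists (12) and the tests were chosen with earlier results of these data known. Named are the 8 genes, other Mup genes with at least 10 counts in 1 mouse, the 5 genes most and 3 least correlated with the log2 sum (average log2 CPM of at least 1, log2 of CPM + 0.5), called genes of each list or else that with the smallest p, *Nod2*, *Zhx2*, *Stat5b*, *Ghr*, *Igf1*, and the neighbours of the cluster. *Susd4*, *Hnf4a*, *Thrb*, *Spp1*, *Krt19*, *Krt7*, *Car3*, *Adipoq*, *Plin1* and *Fabp4* were named after their values were seen. Any 2 libraries of a genotype differed by more than counting noise (lowest chi-square per degree of freedom 11.4 among 36 pairs), and each was taken as 1 sample. According to the paper, mice came from several cages and breeder pairs, but those of each mouse are not given in the sources used here. The tests set the difference between groups against the spread between mice and take the mice as independent. Shared cages or parents within a genotype can make the p-values too small. No protein sequences were used here.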

Additional observations from a re-analysis of the deposited data

Results flagged for a closer look

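A search for single mice that stand apart within their group was run on 60 sets of values (the 8 genes, their sums, shares and ratios in each genotype). It set 7 apart, and chance alone gives about 1 in 20 sets. The sets are built from the same counts and depend on each other, so the 7 are not separate findings. The gap of the mouse to the nearest other mouse, divided by the range of the group, was above 0.625 for 6 mice or 0.568 for 7 mice.

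WT replicate 6 was set apart by *Mup20* and by measures that contain it. Its *Mup20* level was 46851 normalized counts, against 5941 to 19423 in the other WT mice, and the *Mup20* share of the 8 genes' counts was 20.85%, against 3.448 to 7.09%. Its ratio of *Mup20* to *Mup3* counts was 0.3262, against 0.04538 to 0.1016. The *Mup7* share was 2.272% in this mouse, against 3.539 to 4.035%, and pseudogenes held 0.1848% of its Mup counts, against 0.06968 to 0.1106%.

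Among *Nod2*-/- mice, replicate 6 had a *Mup3* share of 43.9%, against 56.79 to 66.42% in the others. Replicate 7 had a *Mup10* share of 2.189%, against 0.2108 to 0.9317%, at the lowest sum of all mice.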

How the results depend on the processing

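The count of 0 of the 8 genes past 5% FDR was the same in all 22 alternatives, and the direction of the fitted change of each gene was the same in all 22. Across them, the edgeR, DESeq2 or limma log2 fold change ran from -1.30 to -0.79 for *Mup2*, from -0.97 to -0.57 for *Mup3*, from -1.25 to -0.23 for *Mup17* and from 0.10 to 1.02 for *Mup20*, and the lowest adjusted p of any of the 8 was 0.166 (*Mup20*). For the sum, 9 other ways of computing it gave log2 ratios of -0.93 (difference of mean log2 values) to -0.31 (ratio of medians), and leaving out 1 mouse gave -0.76 (without *Nod2*-/- replicate 1) to -0.40 (without *Nod2*-/- replicate 7).

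The count over all genes (157 past 5% FDR) moved far more. It was 1209 with DESeq2, 843 with voomWithQualityWeights and 35 with the replicate number as a block. With 1 mouse left out it ran from 41 to 1156 (41, 45, 1156, 42 and 52 without WT replicates 1 to 5, and 67, 81 and 54 without *Nod2*-/- replicates 4, 6 and 7). The cause was not tested. With the block, the log2 ratio of the 8 genes collapsed to 1 feature was -0.48. Mice with the same number correlated at -0.309 to 0.341, above 0.1 in 1 of 6 pairs. Of the WT mice, 0 of 6 correlated best with their own number, so no pairing by number was seen. Such correlations cannot exclude a shared cage or processing order. With the block, the calls of *Igfals* (adjusted p = 0.139), *Cyp17a1* (0.0623), *Onecut1* (0.0809) and *Sox9* (0.0942) were lost, and a robust fit lost that of *Onecut1* (0.0513). Of the 5 genes most like the sum, 1 was among the 5 highest by rank correlation.

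Limits are the 6 and 7 mice, the shared sequence of the central genes and the C57BL/6J genome. Counts of *Mup2* were low in *Nod2*-/- replicates 4, 6 and 7, at 32, 20 and 61 before normalization, so depth limits its values there. Among the other 7 genes the lowest count was 95 (*Mup21* in *Nod2*-/- replicate 7).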

Other observations

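Of the 10 protein-coding genes nearest to the Mup cluster (5 on each side), 8 were tested and edgeR called 0, against 1.16% of all genes (2 at an unadjusted p under 0.05, against 23.1%). The smallest p was that of *Hsdl2*, a peroxisomal dehydrogenase-like gene, at 1861 normalized counts in WT mice and 1271 in *Nod2*-/- mice on average (log2 fold change -0.55 ± 0.16 (SE), edgeR adjusted p = 0.0765).

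Other cell and tissue markers gave these values. They are read against 1.16% of all genes called by edgeR, 23.1% at an unadjusted p under 0.05 and 8.41% called by DESeq2. Of the markers of lacrimal, salivary and nasal glands, *Bpifa2*, *Lcn11* and *Obp1a* had 0 counts in each mouse, and the other 2 of the 5 are *Mup4* and *Mup5*. Of 5 pancreas acinar markers, *Cpa1* and *Pnlip* had 0 counts in each mouse, 1 was tested and 0 were called by edgeR (1 lower at an unadjusted p under 0.05 and by DESeq2). edgeR also called 0 of 1 tested T cell marker. It called 0 of 3 tested B and plasma cell markers (1 higher at an unadjusted p under 0.05, 0 by DESeq2). For stellate cell markers it called 0 of 5 (0 and 0). It called 0 of 4 endothelial and 0 of 2 tested adipose markers. Each of these 2 lists had 1 higher at an unadjusted p under 0.05 and 1 higher by DESeq2.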
